A study of Mus musculus with 9 samples.

Results

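The genes described here are the potassium channel genes, taken as every entry of the deposited gene count table whose name starts with Kcn. There were 95 such entries among 23358. The members were chosen by name, with no measured value in the match, but the family was proposed, and Kcnk3 singled out among its weakly expressed channels, when earlier results of these data were known. The levels and fold changes of Kcnk3 are therefore given as a description, without a test. Counts over all tested members still include Kcnk3, and its call there is no independent result. RNA was sequenced from mouse mesenchymal stem cells, multipotent stromal cells grown from the marrow of adult C57BL/6 mice and used at passages 4 to 10. There were 9 libraries, 3 in each of 3 groups, which the series text calls biological replicates without saying whether they came from separate mice. The siBcat group received siRNA against beta-catenin (Ctnnb1), the GSK126 group a non-targeting siRNA together with 5 µM GSK126, which blocks Ezh2, an enzyme that methylates histone H3 at K27, and the siCTL group the non-targeting siRNA. All groups were kept in osteogenic medium with ascorbic acid and beta-glycerophosphate and lysed on day 4. The treatment field of the siBcat libraries also names 5 µM GSK126, which their titles, source names and the series text do not; groups were formed by title.

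Potassium channels let potassium leave or enter the cell along its gradient and so set the membrane potential. Tandem-pore channels (Kcnk) carry the background current, inward rectifiers (Kcnj) stabilise the resting potential, the Kcnn and Kcnma channels open with calcium inside the cell, and the voltage-gated alpha subunits (among them Kcna, Kcnc, Kcnd and Kcnh) open on depolarisation. Auxiliary subunits (Kcnab, Kcnip, Kcnmb) do not form the pore but change how it opens or where it is placed. In marrow stromal cells such currents have been linked to proliferation, volume control and differentiation. Ezh2 is the catalytic subunit of Polycomb repressive complex 2, which is known to act at CpG-rich promoters, and beta-catenin acts with the TCF/LEF factors, which bind sites with the core CTTTGA.

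The start regions of 4 members that passed the test in at least 1 comparison are shown with each CG in capitals. They are the 250 bases before a RefSeq start on GRCm38.p6, in windows without an annotated exon. For Kcnc2, a voltage-gated alpha subunit with several starts, the outermost window (chr10:112269767-112270016, plus strand) held 2 CG, and a second window free of exons (chr10:112270871-112271120), not shown, held 5. Kcnj2, an inward rectifier (chr11:111065914-111066163, plus strand), held 14, Kcnj15, another inward rectifier (chr16:95257308-95257557, plus strand), held 1, and Kcnn4, a calcium-activated channel (chr7:24370013-24370262, plus strand), held 6. All are written 5′ to 3′.
Kcnc2: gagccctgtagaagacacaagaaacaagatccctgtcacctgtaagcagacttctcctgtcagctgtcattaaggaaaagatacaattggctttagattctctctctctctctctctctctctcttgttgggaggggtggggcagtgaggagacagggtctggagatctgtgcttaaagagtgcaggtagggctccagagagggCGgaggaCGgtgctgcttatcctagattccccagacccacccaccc
Kcnj2: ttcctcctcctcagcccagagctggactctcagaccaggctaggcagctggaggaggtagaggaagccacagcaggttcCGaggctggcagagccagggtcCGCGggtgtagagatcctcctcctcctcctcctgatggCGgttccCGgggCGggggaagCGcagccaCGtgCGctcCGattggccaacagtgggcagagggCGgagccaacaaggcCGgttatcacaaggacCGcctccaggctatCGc
Kcnj15: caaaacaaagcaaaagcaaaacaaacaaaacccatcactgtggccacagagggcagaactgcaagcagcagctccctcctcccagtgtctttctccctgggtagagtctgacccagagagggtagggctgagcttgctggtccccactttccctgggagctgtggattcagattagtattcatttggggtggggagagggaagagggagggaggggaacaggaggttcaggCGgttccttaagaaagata
Kcnn4: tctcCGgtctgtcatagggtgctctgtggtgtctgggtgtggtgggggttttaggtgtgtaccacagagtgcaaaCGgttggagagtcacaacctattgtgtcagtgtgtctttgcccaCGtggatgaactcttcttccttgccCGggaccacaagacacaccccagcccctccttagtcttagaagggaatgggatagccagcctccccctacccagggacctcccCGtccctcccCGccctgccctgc
Over 32851 RefSeq windows of the same length, not limited to those free of exons, the median was 6 CG, with quartiles of 2 and 16. The Kcnj15 window was below the lower quartile and the other 3 shown were within the quartiles. These 4 do not stand for all members that passed. The window of Kcnmb4, not shown because it lay within annotated exons, held 43 CG, and 99.3% of all windows held fewer. The window of Kcnq1ot1, not shown because 2 of its bases lay in an annotated exon, held 5 CG. For Kcnk3, Kcnd1 and Kcnk6 no window was at hand. CTTTGA, searched on both strands, was in none of these 4 windows and in 13.8% of all windows. These matches describe letters in a window and say nothing of binding.

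Summed counts ran from 42324200 to 55898774 per library, and every count was even, so a read pair may have added 2. Ctnnb1 averaged 19.3 ± 0.114 CPM in siBcat, 927 ± 21.9 CPM in GSK126 and 864.5 ± 12.8 CPM in siCTL (SD, n = 3; CPM, counts scaled by the TMM-adjusted library total). Of 12 markers of stromal cells 11 were tested, and the 12 summed to 12430 to 13380 CPM in siBcat, 19790 to 21340 CPM in GSK126 and 13660 to 16520 CPM in siCTL. Most of these sums came from Cxcl12, at 2396, 8002 and 3750 CPM in siBcat, GSK126 and siCTL, and Col1a1, at 7373, 10330 and 8871 CPM. Against siCTL, 2 of the 11 were higher and 2 lower in siBcat (median log2 fold change -0.05). In GSK126 2 were higher and 4 lower (median 0.01). Of all genes tested, 35.2% passed in siBcat and 25.0% in GSK126. Pdgfrb was at 919.9, 633 and 813.7 CPM in siBcat, GSK126 and siCTL, whereas Thy1 was at 0 in all 9 libraries. The leukocyte marker Ptprc was at 0 throughout, and 7 haematopoietic markers summed to 12.04 to 12.66, 9.36 to 11.8 and 11.7 to 14.3 CPM in siBcat, GSK126 and siCTL. Cd14 made up most of these sums. Of the 5 tested, Lyz2 and Cd74 were higher and Cd68 lower in siBcat than in siCTL, and Cd14 was lower in GSK126 than in siCTL. Lyz2 had only 0 to 4 counts per library in siCTL. It was above the filter level of 0.215 CPM in 3 siBcat, 1 GSK126 and 0 siCTL libraries. It was thus tested only through the treated groups, and its call is no independent result. The 8 neural markers summed to 2.58 to 3.52, 3.45 to 3.72 and 3.09 to 3.23 CPM in siBcat, GSK126 and siCTL, and the 7 endothelial markers to 1.66 to 2.23, 1.51 to 2.33 and 1.45 to 2.03 CPM in these groups. Among the 4 neural markers tested, Tubb3 was higher and S100b lower in siBcat than in siCTL. Among the 2 endothelial markers tested, Kdr was higher and Vwf lower. In GSK126 against siCTL no neural or endothelial marker passed. Of the 8 skeletal muscle markers, Acta1 made up most of the sums of 10.85 to 11.01 CPM in siBcat, 7.76 to 8.09 CPM in GSK126 and 1.87 to 2.42 CPM in siCTL; Acta1 was higher with each treatment, at 10.4, 7.57 and 1.77 CPM in siBcat, GSK126 and siCTL, the other marker tested, Ttn, passed in neither comparison with siCTL, and Myog was at 0. The 6 smooth muscle markers summed to 2481 to 2632, 1990 to 2294 and 1415 to 1492 CPM in siBcat, GSK126 and siCTL, with none at 0; against siCTL, 3 were higher and 1, Smtn, lower in siBcat (median log2 fold change 0.17), and 2, Acta2 and Tagln, were higher in GSK126 (median 0.00). The part of these markers in the channel values was not tested. GSK126 replicate 3 stood apart: a trend on gene length took up 33.1% of the variance of its deviations from the group mean, against 15.4 and 18.8% in the other GSK126 libraries and at most 1.19% in siBcat and siCTL libraries.

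Most potassium channel genes had few or no counts. Of the 95 entries 24 had no count in any library, and another 50 had so few that they were not tested, 13 of them with counts in a single library. Summed over the 9 libraries, these 50 had from 2 to 70 counts with a median of 8, and none passed 16 in a library. The remaining 21 entries had more than 0.215 CPM in at least 3 libraries and were tested. None of them passed in the libraries of 1 group only, and 15 were above that level in every library. By class, 3 of 14 tandem-pore genes were tested, 4 of 15 inward rectifiers, 3 of 8 calcium- or sodium-activated channels, 4 of 40 voltage-gated alpha subunits, 6 of 17 auxiliary or regulatory genes, and the non-coding Kcnq1ot1. Just inside the limit were Kcnj14 with 6 to 20 counts per library, Kcnma1 with 6 to 18 and Kcnj4 with 2 to 22. Just outside were Kcnrg with 2 to 16, Kcnt2 with 2 to 12 and Kcnh3 with 0 to 10.

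**Figure D1:**
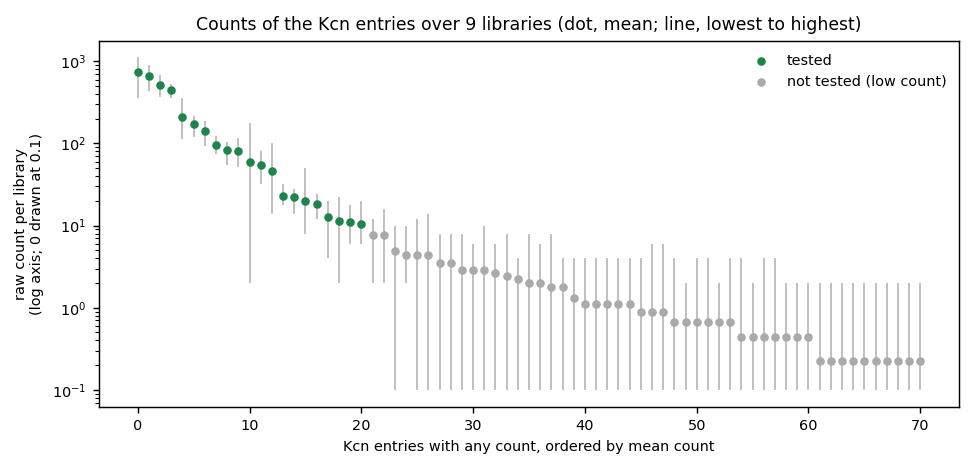
Raw count per library (log axis, 0 drawn at 0.1) of the 71 Kcn entries with any count, ordered by their mean over 9 libraries. Dots are means and lines run from the lowest to the highest library; the 21 tested genes are green and the 50 others grey, and none of the untested passed 16 counts in a library.

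Scaled by length, as the authors' RPKM (counts scaled by gene length and library total), 6 genes led the family. Kcnd1, a voltage-gated alpha subunit of the Shal type that gives a fast, transient current, averaged 8.14 ± 0.511 RPKM in siBcat, 4.75 ± 0.126 in GSK126 and 6.64 ± 0.400 in siCTL (SD, n = 3, as below). Kcnmb4, an auxiliary subunit of the large-conductance calcium-activated channel, averaged 2.82 ± 1.02, 5.43 ± 1.09 and 3.73 ± 0.279 RPKM in siBcat, GSK126 and siCTL. Kcnc2, a Shaw-type subunit known from fast-spiking neurons, stood at 3.16 ± 0.0508 RPKM in siBcat, 1.29 ± 0.0811 in GSK126 and 2.55 ± 0.0819 in siCTL. Kcnd1 was the highest member in siBcat and siCTL and Kcnmb4 in GSK126, where the means of both genes differed by less than the SD of Kcnmb4. Kcnj2 followed at 2.13 ± 0.0996 RPKM in siBcat, 1.40 ± 0.145 in GSK126 and 1.88 ± 0.25 in siCTL. Kcnab1, a cytoplasmic beta subunit of Shaker channels, came next over all libraries, with 1.06 ± 0.0375 RPKM in siBcat, 0.833 ± 0.163 in GSK126 and 0.795 ± 0.177 in siCTL. Kcnh2, whose human counterpart is the hERG channel of the heart, averaged 0.699 ± 0.144 RPKM in siBcat, 0.773 ± 0.149 in GSK126 and 0.897 ± 0.132 in siCTL, and in GSK126 and siCTL it differed from Kcnab1 by less than their SDs. The pore-forming partner of Kcnmb4, Kcnma1, was at the low end of the tested genes, at 0.0275, 0.0252 and 0.0286 RPKM in siBcat, GSK126 and siCTL.

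**Figure D2:**
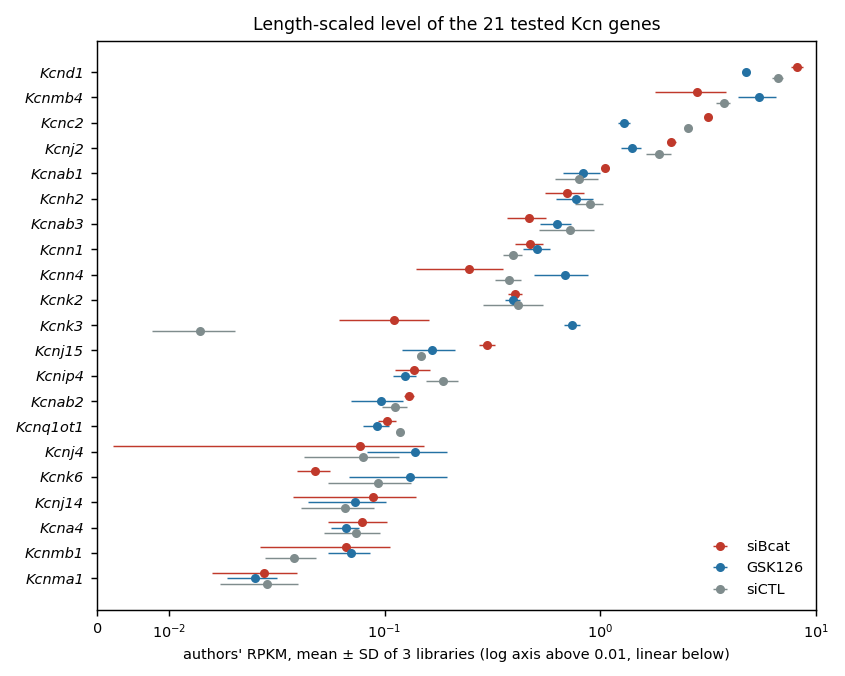
Authors' RPKM of the 21 tested genes (mean ± SD of 3 libraries; the axis is logarithmic above 0.01 and linear below), with siBcat in red, GSK126 in blue and siCTL in grey. Kcnd1, Kcnmb4, Kcnc2 and Kcnj2 stood above 1 RPKM in every group, and Kcnk3 stood at 0.743 RPKM in GSK126, against 0.014 RPKM in siCTL.

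Summed over all Kcn entries but Kcnq1ot1, levels were 78.4, 75.8 and 73.4 CPM in siBcat, 56.5, 53.4 and 54.8 CPM in GSK126, and 66.1, 67.3 and 65.1 CPM in siCTL. The 3 groups did not overlap on this scale. Kcnc2, Kcnd1 and Kcnj2 made up much of the sum, and Kcnc2 alone took 28.3 to 29.9% of it in siBcat, 15.1 to 16.4% in GSK126 and 25.4 to 27.7% in siCTL. The share of Kcnk3 was 0.358 to 0.908% in siBcat, 5.25 to 5.81% in GSK126 and 0.0652 to 0.137% in siCTL. In RPKM, which weights short genes more, the sums were 22.7, 20.3 and 20.3 in siBcat, 19.3, 17.6 and 20.1 in GSK126, and 19.8, 20.3 and 19.4 in siCTL, and the groups did overlap.

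**Figure D3:**
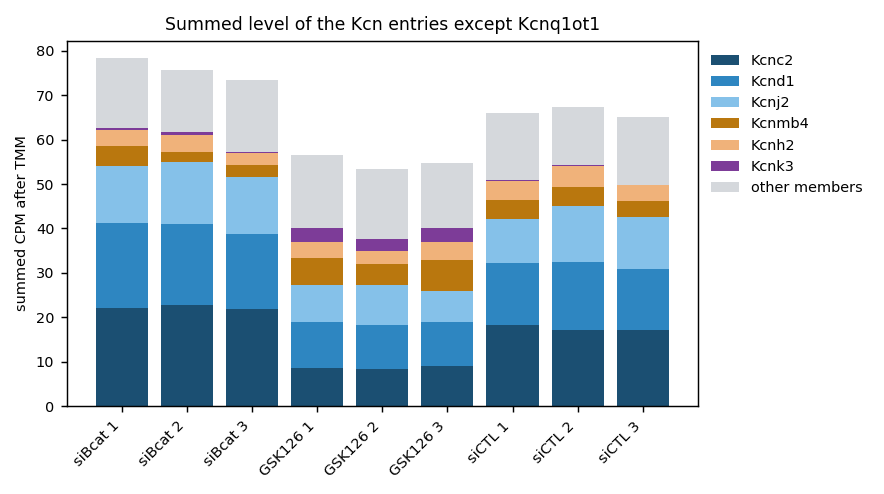
Summed CPM of all Kcn entries but Kcnq1ot1 in each library, split into 6 named genes and the other members. The bars reach 73.4 to 78.4 CPM in siBcat, 53.4 to 56.5 CPM in GSK126 and 65.1 to 67.3 CPM in siCTL.

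Setting siBcat against siCTL addresses the transcripts that differ when beta-catenin is depleted. Calls come from edgeR's quasi-likelihood test, adjusted over all 13240 genes tested (threshold 0.05). Of the 20 members other than Kcnk3, 3 were higher and 0 lower: Kcnj15, Kcnc2 and Kcnd1. Counted with Kcnk3, 4 of the 21 members were called, or 19.0%, against 35.2% of all genes tested. An unadjusted p under 0.05 was found for 6 of the 21 members and, as every called gene has one, for at least 35.2% of all genes. For 6 members every siBcat library was above, or every one below, the siCTL libraries, as for 55.2% of all genes. The median log2 fold change was 0.12 over the members and 0.00 over all genes. Kcnj15, and Kcnk3 if counted, passed with a fold change of at least 2, as did 4.55% of all genes. Kcnk3 is included in the counts over 21 members for completeness, as its call is no independent result. With the length trend removed, 7 of 21 members and 42.1% of all genes passed, and with GSK126 replicate 3 left out of the shared fit, 7 of 23 members and 47.2% of all genes.

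Setting GSK126 against siCTL addresses those that differ when Ezh2 is inhibited. Here 0 of the 20 members other than Kcnk3 were higher and 4 were lower: Kcnc2, Kcnd1, Kcnj2 and Kcnq1ot1. Counted with Kcnk3, 5 of 21 were called, or 23.8%, against 25.0% of all genes tested, a share close to the background. An unadjusted p under 0.05 was found for 7 of the 21 members and, as every called gene has one, for at least 25.0% of all genes. The libraries were apart in this way for 9 members, Kcnk3 among them, and 42.1% of all genes. Kcnc2, and Kcnk3 if counted, passed with a fold change of at least 2, as did 2.71% of all genes. The median log2 fold change was -0.11 over the members, Kcnk3 included, and 0.01 over all genes. Both treatments were set against the same siCTL libraries. Set directly against GSK126, siBcat had 7 of the 20 members other than Kcnk3 called. Kcnc2, Kcnd1, Kcnj2 and Kcnj15 were higher, and Kcnn4, Kcnmb4 and Kcnk6 lower. Counted with Kcnk3, 8 of 21 were called, or 38.1%, against 41.2% of all genes tested. There the libraries were apart for 10 members, Kcnk3 among them, and 52.5% of all genes. Kcnk6, Kcnn4 and Kcnc2, and Kcnk3 if counted, passed with a fold change of at least 2, as did 6.02% of all genes. The medians were 0.20 over the members and -0.01 over all genes. As these are bulk cultures, fewer cells expressing a gene and less RNA per cell cannot be told apart.

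**Figure D4:**
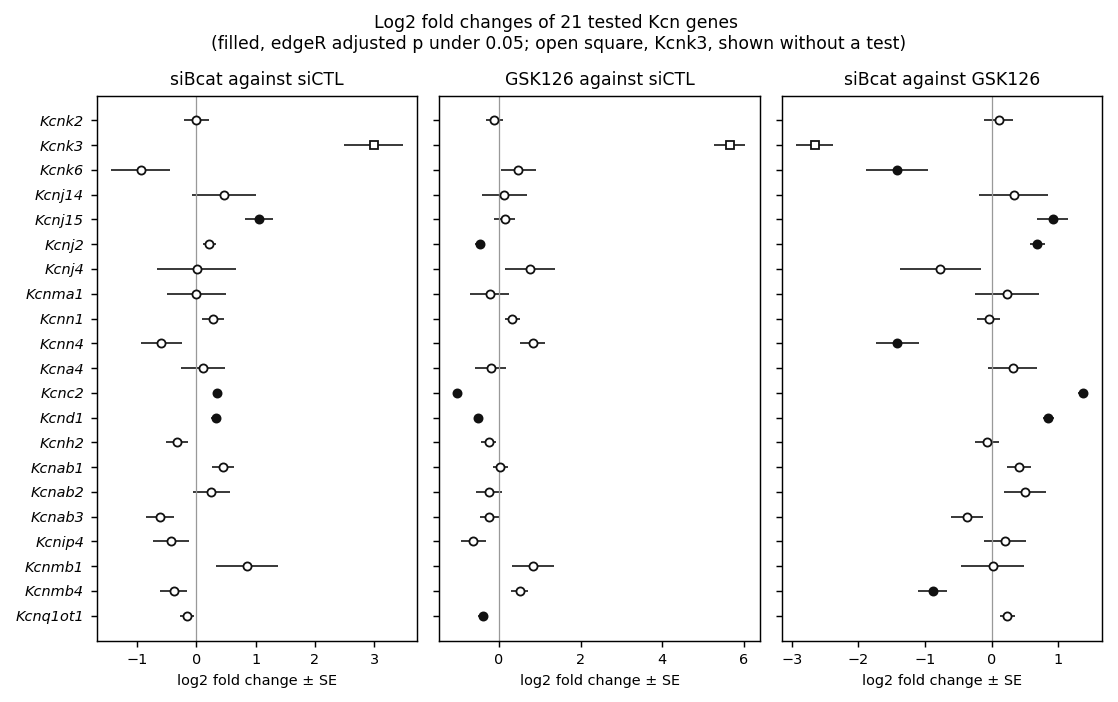
Log2 fold changes ± SE of the 21 tested genes in the 3 comparisons, ordered by class, on separate linear axes. Filled dots passed the edgeR test at an adjusted p under 0.05, and Kcnk3 is an open square, at 2.99 in siBcat and 5.64 in GSK126 against siCTL.

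Among tandem-pore genes, Kcnk3 (chromosome 5, 30588170 to 30625271 on GRCm38) encodes an acid-sensitive background channel known from carotid body, adrenal and pulmonary artery cells. It had 20, 34 and 12 raw counts in siBcat, 180, 122 and 164 in GSK126, and 4, 2 and 2 in siCTL. Its levels were 0.487, 0.688 and 0.263 CPM in siBcat, 3.18, 2.80 and 3.18 CPM in GSK126, and 0.0905, 0.0441 and 0.0424 CPM in siCTL. No library of one group reached those of another, and the siCTL libraries were near the limit of counting. The log2 fold change was 5.64 (SE 0.39) for GSK126 against siCTL, 2.99 (SE 0.49) for siBcat against siCTL and -2.66 (SE 0.27) for siBcat against GSK126. From fragments summed over the 3 libraries of a group, taken as counts divided by 2, the ratio to siCTL was 52.5 in GSK126, with an exact 95% interval of 20.2 to 194. In siBcat it was 8.28, with an interval of 2.95 to 32.2. The intervals cover counting error only and leave out the spread between libraries. Neither these intervals nor the SEs are a test, as Kcnk3 was singled out with results of these data known. Kcnk3 was above the filter level in all siBcat and GSK126 libraries and in 0 siCTL libraries. It thus entered the fit only through the treated groups. By length-scaled level Kcnk3 ranked 14th of the 21 tested genes in siBcat, 7th in GSK126 and 21st in siCTL. It shares 229 exon bases with Gm9899, an annotated transcript of the opposite strand with 0 counts in each siBcat library, 4, 8 and 8 counts in GSK126 and 0 in each siCTL library. Whether counting used strand is not given in the sources used here.

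Kcnk2, a mechanosensitive background channel (chromosome 1, 189207930 to 189402273), was at 1.95, 1.66 and 1.84 CPM in siBcat, 1.55, 1.84 and 1.67 CPM in GSK126, and 2.04, 1.19 and 2.21 CPM in siCTL. The groups overlapped, and its log2 fold change was 0.00 (SE 0.21) for siBcat and -0.11 (SE 0.22) for GSK126 against siCTL. Kcnk6, a related channel with weak currents of its own (chromosome 7, 29221926 to 29232515), stood at 0.244, 0.243 and 0.175 CPM in siBcat, 0.883, 0.322 and 0.543 CPM in GSK126, and 0.543, 0.220 and 0.509 CPM in siCTL. Its level was 2.67-fold lower in siBcat than in GSK126 (log2 ratio -1.42, SE 0.47, adjusted p = 0.0275), with all siBcat libraries below those of GSK126. That call ended without GSK126 replicate 1 (adjusted p = 0.153) or without siBcat replicate 1, 2 or 3 (0.0621, 0.0667 and 0.0971), with a range of 0.0120 to 0.153 over the alternatives tried.

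Among the inward rectifiers, Kcnj2 (chromosome 11, 111066164 to 111076821) encodes the strong rectifier that holds the resting potential of heart and skeletal muscle. It was at 12.9, 13.9 and 12.8 CPM in siBcat, 8.51, 9.05 and 7.10 CPM in GSK126, and 9.73, 12.6 and 11.7 CPM in siCTL. All GSK126 libraries lay below the others, although siCTL replicate 1 came close, and all siBcat libraries lay above siCTL, by little. Kcnj2 was 1.38-fold lower in GSK126 than in siCTL (log2 ratio -0.46, SE 0.11, adjusted p = 0.0104) and 1.61-fold higher in siBcat than in GSK126 (0.68, SE 0.11, adjusted p = 0.000372). For siBcat against siCTL it differed by 0.22 (SE 0.11, adjusted p = 0.146); with the length trend removed this difference passed the threshold (0.28, adjusted p = 0.0264; range 0.0264 to 0.452 over the alternatives).

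Kcnj15, known from kidney (chromosome 16, 95257558 to 95300260), was at 1.95, 1.66 and 1.71 CPM in siBcat, 1.10, 1.10 and 0.621 CPM in GSK126, and 0.860, 0.838 and 0.849 CPM in siCTL. All siBcat libraries were above all others. It was 2.08-fold higher in siBcat than in siCTL (log2 ratio 1.06, SE 0.24, adjusted p = 0.00397) and 1.88-fold higher than in GSK126 (0.91, SE 0.23, adjusted p = 0.00688), while GSK126 differed from siCTL by 0.14 (SE 0.25, adjusted p = 0.706). The annotation puts the antisense gene Gm49643 over 333 of its exon bases. The low members Kcnj4 and Kcnj14, which belong to the subfamily of Kcnj2, averaged 0.188 and 0.265 CPM in siBcat, 0.321 and 0.210 CPM in GSK126, and 0.188 and 0.192 CPM in siCTL. They had SEs of 0.52 to 0.67 on the log2 scale and passed the test in none of the 3 comparisons.

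Of the calcium-activated channels, Kcnn4 (chromosome 7, 24370263 to 24386690) encodes the intermediate-conductance channel of lymphocytes, red cells and fibroblasts. It stood at 0.731, 0.283 and 0.700 CPM in siBcat, 1.17, 1.42 and 1.94 CPM in GSK126, and 0.860, 0.970 and 0.721 CPM in siCTL. GSK126 libraries were above all others, and siBcat and siCTL overlapped. Kcnn4 was 2.67-fold lower in siBcat than in GSK126 (log2 ratio -1.42, SE 0.33, adjusted p = 0.00387). Against siCTL it differed by 0.83 (SE 0.31, adjusted p = 0.0680) in GSK126 and by -0.59 (SE 0.35, adjusted p = 0.213) in siBcat. The difference of GSK126 passed without siBcat replicate 2 (0.82, adjusted p = 0.0362; range 0.0362 to 0.197). Kcnn1, of the small-conductance type, averaged 2.16, 2.24 and 1.77 CPM in siBcat, GSK126 and siCTL, with log2 fold changes of 0.28 (SE 0.18) and 0.33 (SE 0.18) over siCTL that did not pass the test. Kcnma1, the large-conductance channel, had 6 to 18 counts per library, and its log2 fold changes, with SEs of 0.48 to 0.49, did not pass the test.

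Among the voltage-gated alpha subunits, Kcnc2 (chromosome 10, 112271121 to 112467024) was at 22.2, 22.6 and 21.9 CPM in siBcat, 8.51, 8.27 and 9.002 CPM in GSK126, and 18.3, 17.1 and 17.1 CPM in siCTL. Replicates lay close together and the 3 groups did not overlap. Kcnc2 was 1.27-fold higher in siBcat than in siCTL (log2 ratio 0.34, SE 0.07, adjusted p = 0.00168) and 2.04-fold lower in GSK126 than in siCTL (-1.03, SE 0.07, adjusted p = 8.41e-07). The direct difference, siBcat against GSK126, was 1.37 (SE 0.07, adjusted p = 1.56e-08).

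Kcnd1 (chromosome X, 7822289 to 7838280) was at 19.1, 18.3 and 16.8 CPM in siBcat, 10.3, 9.88 and 9.93 CPM in GSK126, and 14.03, 15.4 and 13.7 CPM in siCTL. As for Kcnc2, siBcat libraries were highest and GSK126 libraries lowest, with no overlap. Kcnd1 was 1.26-fold higher in siBcat than in siCTL (0.33, SE 0.08, adjusted p = 0.00588), 1.43-fold lower in GSK126 than in siCTL (-0.52, SE 0.08, adjusted p = 0.000545) and 1.80-fold higher in siBcat than in GSK126 (0.85, SE 0.08, adjusted p = 3.52e-06). Kcnh2 (chromosome 5, 24319589 to 24351604) was at 3.41, 4.01 and 2.63 CPM in siBcat, 3.46, 2.94 and 4.15 CPM in GSK126, and 4.34, 4.76 and 3.48 CPM in siCTL. These groups overlapped, and its log2 fold changes over siCTL were -0.32 (SE 0.18, adjusted p = 0.194) in siBcat and -0.25 (SE 0.18, adjusted p = 0.337) in GSK126. Kcna4, a Shaker-type subunit of transient current, averaged 0.432, 0.347 and 0.395 CPM in siBcat, GSK126 and siCTL, and passed the test in none of the 3 comparisons.

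**Figure D5:**
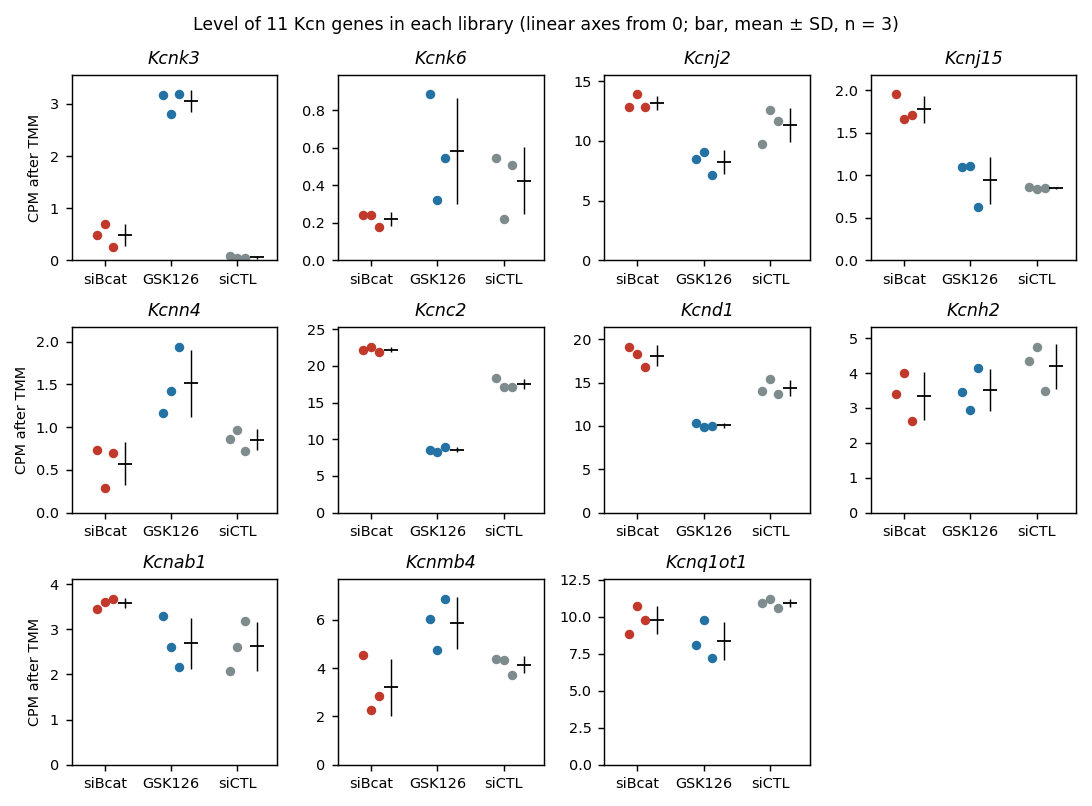
CPM after TMM scaling of 11 Kcn genes in each of the 9 libraries (linear axes from 0; coloured dots are libraries, black bars the mean ± SD, n = 3). Kcnc2 and Kcnd1 are highest in siBcat and lowest in GSK126, Kcnk3 is highest in GSK126, and Kcnj15 is highest in siBcat.

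Among the auxiliary genes, Kcnmb4 (chromosome 10, 116417861 to 116473878) was at 4.53, 2.27 and 2.85 CPM in siBcat, 6.04, 4.73 and 6.87 CPM in GSK126, and 4.39, 4.32 and 3.74 CPM in siCTL. GSK126 libraries were above all others, by little in the case of replicate 2, and siBcat and siCTL overlapped. Kcnmb4 was 1.85-fold lower in siBcat than in GSK126 (log2 ratio -0.89, SE 0.22, adjusted p = 0.00637). Against siCTL it differed by 0.51 (SE 0.21, adjusted p = 0.101) in GSK126 and by -0.38 (SE 0.22, adjusted p = 0.216) in siBcat; without siBcat replicate 1 both passed (0.50, adjusted p = 0.0391, in GSK126 and -0.71, adjusted p = 0.0153, in siBcat; ranges 0.0391 to 0.261 and 0.0153 to 0.585). In a fit of only the 2 groups compared, the difference of GSK126 from siCTL also passed (0.49, adjusted p = 0.0493). The antisense genes Kcnmb4os1 and Kcnmb4os2 cover 355 and 693 of the exon bases of Kcnmb4.

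Kcnab1 (chromosome 3, 65109384 to 65378223) stood at 3.46, 3.603 and 3.68 CPM in siBcat, 3.29, 2.62 and 2.17 CPM in GSK126, and 2.08, 2.601 and 3.18 CPM in siCTL. The siBcat libraries were the highest, and GSK126 and siCTL overlapped widely. Its difference of 0.45 (SE 0.18, adjusted p = 0.0734) between siBcat and siCTL missed the threshold and passed it under 4 alternatives, without siCTL replicate 3 (0.61, adjusted p = 0.0332) or GSK126 replicate 3 (0.45, adjusted p = 0.0280) among them, with a range of 0.0280 to 0.252. Against GSK126 the difference was 0.41 (SE 0.18, adjusted p = 0.0877). Without GSK126 replicate 1 that difference passed (0.59, adjusted p = 0.0294), with a range of 0.0294 to 0.224. The related Kcnab2 and Kcnab3 averaged 0.559 and 1.34 CPM in siBcat, 0.393 and 1.72 CPM in GSK126, and 0.468 and 2.04 CPM in siCTL, and neither passed the test, Kcnab3 narrowly in siBcat against siCTL (-0.61, SE 0.24, adjusted p = 0.0653). Nor did Kcnip4, a calcium-binding partner of Shal channels, or Kcnmb1, the beta subunit known from smooth muscle. Kcnip4 averaged 0.459, 0.399 and 0.613 CPM in siBcat, GSK126 and siCTL, with SEs of 0.30 to 0.32, and Kcnmb1 averaged 0.313, 0.315 and 0.176 CPM in siBcat, GSK126 and siCTL, with SEs of 0.47 to 0.53.

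Kcnq1ot1 (chromosome 7, 143203458 to 143296549) is a long non-coding transcript, expressed from the paternal copy and known to keep neighbouring imprinted genes silent. It is antisense to Kcnq1 and shares 121 exon bases with it, while Kcnq1 itself had 0 to 2 counts per library. Kcnq1ot1 was at 8.81, 10.7 and 9.76 CPM in siBcat, 8.09, 9.74 and 7.22 CPM in GSK126, and 10.9, 11.2 and 10.6 CPM in siCTL, with GSK126 below siCTL in all libraries. It was 1.31-fold lower in GSK126 (log2 ratio -0.39, SE 0.11, adjusted p = 0.0243). This call ended without GSK126 replicate 1 (adjusted p = 0.0637) or siCTL replicate 1 or 2 (0.0600 and 0.0712), and with the length trend removed the sign turned (0.23, adjusted p = 0.496, the highest of a range from 0.00530); its listed length of 83437 bases is far above those of the other tested members.

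Other genes of potassium handling and of the voltage-gated channels were taken from lists. As background, 35.2% of all genes were called in siBcat and 25.0% in GSK126 against siCTL. Of 6 cation-chloride cotransporters, 2 were higher in siBcat, Slc12a7 (0.51, SE 0.08, adjusted p = 0.000305) and Slc12a4 (0.26, SE 0.05, adjusted p = 0.00156), and 0 passed the edgeR test in GSK126, where Slc12a7 differed by 0.22 (unadjusted p = 0.0169, adjusted p = 0.0615). The median log2 fold changes of these 6 against siCTL were -0.12 in siBcat and -0.03 in GSK126, against 0.00 and 0.01 over all genes.

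Set against siCTL, 2 of 9 calcium channel subunits were higher and 2 lower in siBcat (median -0.20), where 35.2% of all genes were called. In GSK126, where 25.0% of all genes were called, 3 of the 9 were higher and 1 lower (median 0.01). The pore subunit Cacna1a averaged 4.97, 13.1 and 8.06 CPM in siBcat, GSK126 and siCTL, lower in siBcat (-0.69, SE 0.16, adjusted p = 0.00403) and higher in GSK126 (0.70, SE 0.15, adjusted p = 0.00431). The accessory subunit Cacna2d1 was higher in siBcat (0.66, SE 0.08, adjusted p = 5.78e-05) and Cacnb3 lower (-0.33, SE 0.06, adjusted p = 0.00115). Of 4 sodium channel subunits, 1, Scn3b, was higher with each treatment, at 0.557, 0.400 and 0.101 CPM in siBcat, GSK126 and siCTL. It had 20 to 30 counts per library in siBcat, 20 in GSK126 and 0, 8 and 6 in siCTL. It was above the filter level in 0 siCTL libraries, so it was tested only through the treated groups. The medians of the list were -0.16 in siBcat and 0.21 in GSK126. Of the 3 intracellular channels, Tmem38b was higher in siBcat (0.45, SE 0.09, adjusted p = 0.00141) and GSK126 (0.30, SE 0.09, adjusted p = 0.0244). The pacemaker channel gene Hcn2 was the 1 of 2 nonselective cation channels that passed, in siBcat (0.73, SE 0.16, adjusted p = 0.00350), and 0 of 2 auxiliary genes without a Kcn name, Amigo1 and Abcc9, passed in either comparison with siCTL, with unadjusted p above 0.05 except for Amigo1 in GSK126 (0.32, SE 0.14, adjusted p = 0.115).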

How the data were processed

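RNA sequencing counts of 9 mouse libraries were used. The submitters' processing notes name TopHat2 2.0.6, bcl2fastq, HTSeq and the build mm10; what each did, the annotation and the strand setting are not given in the sources. Per the file headers, the deposited table holds a raw count and the authors' RPKM per gene and library, with a gene length in bases. No count was odd. Another 6 columns of per-sample values were not used, nor was the ChIP-seq part of the study.

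Groups followed the sample titles. Tests ran in edgeR 4.0.16 (R 4.3.3). Genes were kept by filterByExpr with the groups given, at a minimum count of 10 and a minimum total of 15, and libraries were scaled by TMM. A robust quasi-likelihood model was fitted to all 9 libraries (6 residual degrees of freedom, common biological coefficient of variation 8.12%) and 3 comparisons were tested. Benjamini-Hochberg adjustment was over 13240 genes; 10118 were filtered out. Levels are TMM-scaled CPM; RPKM was used only to compare genes. The procedure was run on simulated counts, with changes set only in genes of at least 1 CPM and without a length trend. That run does not cover weaker members or the trend of GSK126 replicate 3.

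The members and lists were chosen with earlier results of these data known. Genes named in full were Kcnk3, members past the threshold and the 6 highest in RPKM, with up to 3 genes of each list; the results of 1 list are not reported here. Of the 95 entries all 95 matched GENCODE M21 by name and overlapped it; positions come from there. RefSeq start windows were at hand for 16 of the 21 tested members. P values measure the spread between these libraries, which may be technical in part. Replicate pairs were checked for identity: chi-square over degrees of freedom was 2.55 to 30.7, so all pairs differed beyond counting noise.

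The alternatives changed the scaling (upper quartile, DESeq2 size factors, or library size only), the filter (none, 1 CPM in 3 libraries, or a mean of 0.25 CPM) and the tool (DESeq2 1.42.0, or limma-voom with limma 3.58.1). Others fitted only the 2 groups compared, a replicate block, halved counts, or no robust estimation, left out each library in turn, removed a trend on length (loess, span 0.5) or asked for a fold change of at least 2.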

Additional observations from a re-analysis of the deposited data

How the results depend on the processing

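Under 23 alternatives, 33 results of 11 named members were recomputed. Calls of Kcnc2, Kcnd1, Kcnj2, Kcnj15, Kcnn4 and Kcnmb4 kept their direction and their side of the threshold under all, except where a fold change of at least 2 was also required; Kcnk6 and Kcnq1ot1 did not, as given above, and Kcnk6 had no value under the filter of 1 CPM. Direction turned only for values that missed the threshold in that setting: Kcnq1ot1 with the length trend removed, at 0.23 for GSK126 against siCTL and -0.27 for siBcat against GSK126; Kcnab1 for GSK126 against siCTL, at -0.10 without siCTL replicate 1 and -0.14 without GSK126 replicate 1 (range -0.14 to 0.20 with single libraries left out); and Kcnh2 for siBcat against GSK126, at 0.06 without GSK126 replicate 3 and 0.08 without siBcat replicate 3 (range -0.23 to 0.08).

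For siBcat against siCTL, the 4 members called became 7 with the length trend removed (Kcnab1, Kcnab3 and Kcnj2 added; 5568 of all genes, 42.1%) and 7 of 23 tested without GSK126 replicate 3 (Kcnab1, Kcnab3 and Kcnh3 added, the last let in by the changed filter; 6320 of 13379 genes, 47.2%), with 4 to 7 when single libraries were left out. The cause was not tested. The ranges were 4 to 6 for GSK126 against siCTL and 8 to 10 for siBcat against GSK126. Over all genes they were 3613 to 6320, 2337 to 3844 and 4417 to 6318. With a fold change of at least 2, the calls were 2 members and 603 genes, 2 and 359, and 4 and 797. Of the genes called for siBcat against GSK126, 46.8% were higher, and 33.4% with library size only.

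Same-numbered libraries did not deviate together (correlations of -0.091 to 0.1), and the numbers are not stated to pair cultures. With the replicate block, 5, 5 and 8 members and 4514, 3135 and 5267 genes were called in siBcat against siCTL, GSK126 against siCTL and siBcat against GSK126, the added member being Kcnab3 (-0.59, adjusted p = 0.0273). For members under about 20 counts per library, depth limits the precision.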

Other observations

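Kcnh3, a voltage-gated alpha subunit known from forebrain neurons, was filtered out and was picked after its values were seen. It had 0 counts in each siBcat library, 8, 4 and 10 in GSK126, and 10, 10 and 2 in siCTL. The GSK126 and siCTL groups held 11 fragments each. With 3 fragments over the group put in place of the 0 in siBcat, its level there came out 3.29-fold lower than in GSK126 and 3.65-fold lower than in siCTL. These ratios leave out the counting error of the 11 fragments and are not lower bounds. No test is given here, since the gene was picked for this pattern. Its call without GSK126 replicate 3, counted above, is for the same reason no independent result.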
